A study of Mus musculus with 9 samples.

Results

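The potassium channel genes described here are the mouse genes whose symbol starts with Kcna, Kcnab, Kcnb, Kcnc, Kcnd, Kcnf, Kcng, Kcnh, Kcnn, Kcnq, Kcns or Kcnt followed by a number, and that had a mean of at least 10 exon-based reads over 9 brain libraries. Of 49585 genes in the deposited table, 47 carried such a symbol and 42 reached that mean. Kcna3, Kcna7, Kcna10, Kcnn4 and Kcnq1 did not reach it. The members nearest above the minimum were Kcnh6 with a mean of 24.9 reads, Kcns1 with 29.9 and Kcnh8 with 31.3, and the gene nearest below it was Kcnq1 with 6.56. All 42 members passed the filter of the test.

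The study asked how deep sevoflurane anesthesia alters transcripts of the hypothalamic region in mice. Male wild-type C57BL/6J mice of 8 to 15 weeks formed 3 groups with 3 libraries each. Doses of inhaled anesthetics are given as multiples of MAC, short for minimum alveolar concentration. In the 2.0 MAC group, mice inhaled sevoflurane at 2.0 MAC for 30 min and then at 0.7 MAC for 90 min. Those of the 0.7 MAC group inhaled it at 0.7 MAC for 120 min, and oxygen was at 100% for both. The CTRL group moved freely for 120 min with no sevoflurane, and whether these mice breathed added oxygen is not stated. The labels can be read as giving 0.7 MAC anesthesia before every condition. Mice of all groups, CTRL included, were killed under anesthesia. By the schedule above, RNA of the 2.0 MAC group was taken after the return to 0.7 MAC and not at 2.0 MAC. The tissue is labelled hypothalamus and is described in the methods as what remained after the cortex, cerebellum and olfactory bulb had been taken off. The extraction text names whole brain and neurospheres, so the extent of the pieces is not certain. Nothing says that each library came from a separate mouse, and p-values measure the spread between libraries, which may be technical.

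Voltage-gated potassium channels open when the membrane is depolarized and let potassium leave the cell, which repolarizes neurons, limits repetitive firing and sets the threshold for action potentials. Most are tetramers of pore-forming subunits, and the subfamilies differ in voltage range, speed of opening and place on the neuron. Not every gene that the symbols take in is a voltage-gated pore: Kcnab genes encode cytoplasmic beta subunits, Kcnn genes encode channels gated by calcium, Kcnt genes encode channels activated by sodium, and Kcnf, Kcng and Kcns genes encode electrically silent subunits that form no channel of their own and modify Kcnb channels.

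The members share the selectivity filter, the stretch of the pore loop that passes potassium and holds back sodium. Searching the translated coding sequence of 1 GENCODE transcript per member found the filter signature in 39 of 42, with the 3 Kcnab genes as the exceptions. The fourth of its 5 codons was TAT or TAC, which encode tyrosine, in 29 members and TTT or TTC, which encode phenylalanine, in 10. Those 10 were the 8 Kcnh genes, Kcnt1 and Kcnt2. The windows of 39 bases shown here are coding sequence on GRCm38, read 5′ to 3′ on the gene's strand, with the 5 filter codons in capitals. They were chosen to show both kinds of filter among members that the results turn on, and each lies within a single exon.
Kcna2, chr3:107105212-107105250, plus strand: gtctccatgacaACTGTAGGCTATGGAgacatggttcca
Kcna4, chr2:107296483-107296521, plus strand: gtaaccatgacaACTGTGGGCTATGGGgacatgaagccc
Kcnf1, chr12:17175049-17175087, minus strand: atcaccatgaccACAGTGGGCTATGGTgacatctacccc
Kcng1, chr2:168262629-168262667, minus strand: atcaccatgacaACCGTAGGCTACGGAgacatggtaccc
Kcnh2, chr5:24325543-24325581, minus strand: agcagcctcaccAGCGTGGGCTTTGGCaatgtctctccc
Kcnh3, chr15:99232917-99232955, plus strand: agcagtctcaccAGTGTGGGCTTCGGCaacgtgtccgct
Kcnh4, chr11:100750281-100750319, minus strand: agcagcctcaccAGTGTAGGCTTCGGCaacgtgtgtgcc
Kcnt2, chr1:140425266-140425304, plus strand: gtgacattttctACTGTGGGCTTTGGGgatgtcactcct
Kcnh2 and Kcnh3 have the same kind of filter and moved in opposite directions, as did Kcna2 and Kcna4. These pairs were chosen with their changes known, and whether the kind of filter goes with the direction of change was not tested.

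Levels between genes were compared as RPKM, the authors' read counts scaled to gene length and to the size of the library, which they computed from all exon reads of a gene. The summed RPKM of all 47 genes lay between 242 and 253 in CTRL, between 234 and 249.6 at 0.7 MAC and between 249 and 253 at 2.0 MAC. All 3 ranges overlap. Summed by subfamily, Kcna genes led with a mean of 62.0 RPKM over the 9 libraries, followed by Kcnc at 46.0, Kcnab at 34.8, Kcnq at 24.7, Kcnh at 22.3 and Kcnd at 17.9. The other subfamilies had means of 9.33 for Kcnt, 8.71 for Kcnb, 7.09 for Kcng, 6.05 for Kcnn, 4.04 for Kcnf and 3.68 for Kcns. Over all 9 libraries the ranges of neighbours in this order did not overlap between Kcna and Kcnc, Kcnc and Kcnab, Kcnab and Kcnq, or Kcnd and Kcnt, and they overlapped between every other pair of neighbours.

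Single genes spanned a wide range of RPKM. Kcnab2, a beta subunit of Kcna channels, had the highest mean at 22.8 RPKM, with 22.4, 22.7 and 23 in the CTRL libraries 1 to 3, 22.8, 19.1 and 24.0 at 0.7 MAC and 23.6, 23.7 and 23.5 at 2.0 MAC. Kcna1 and Kcna2, which encode axonal low-threshold channels, followed with means of 21.8 and 20.7, and the ranges of these 3 genes overlap. Among the leading genes of other subfamilies were Kcnd2 with a mean of 11.7 RPKM, Kcnt1 with 7.36, Kcnh2 with 6.58, Kcnf1 with 4.04, Kcng4 with 3.90, Kcnn2 with 2.53 and Kcns2 with 2.07. The lowest means among the members were 0.368 RPKM for Kcnh6 and 0.363 for Kcnh8, whose ranges overlap.

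**Figure D1:**
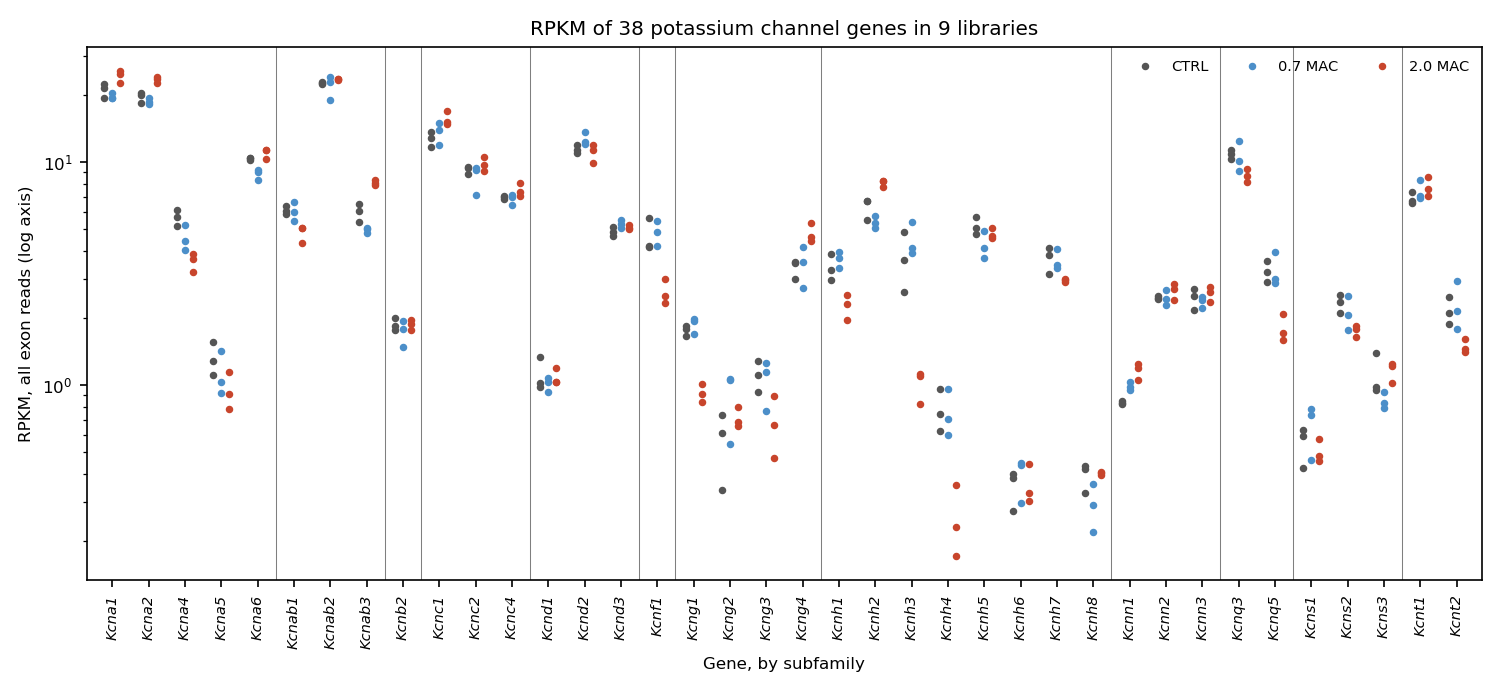
RPKM of 38 members (log axis) in the 3 CTRL, 3 0.7 MAC and 3 2.0 MAC libraries, 1 point per library, with vertical lines between subfamilies. Kcnab2, Kcna1 and Kcna2 lie highest, Kcnh6 and Kcnh8 have the lowest means, and the 2.0 MAC points of Kcnh3 and Kcnh4 stand below those of the other groups.

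The exon-based reads used for the tests hold every uniquely assigned exon read and, of those not uniquely assigned, the ones that join a pair of exons. The rest are left out, and for Kcna3, Kcna6 and Kcnh1 these were most of the gene's exon reads. Kcna3 kept 1 read over all 9 libraries although its mean RPKM was 3.66 and its total exon reads were 108 to 149 per library, and it overlaps the gene model Gm27008. Kcna6, which overlaps Gm26673, kept 6.50% of its exon reads, Kcnh1 42.9%, Kcnt2 74.0%, Kcnn2 83.9% and Kcnab1 87.5%. Their values below therefore rest on part of each gene, and results on total exon reads are also given.

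Between 2.0 MAC and 0.7 MAC, 20 of the 42 members (47.6%) differed at an adjusted p under 0.05 (edgeR's quasi-likelihood test, Benjamini-Hochberg adjustment over 14140 genes), against 14.7% of all genes tested. In the 2.0 MAC group 15 members (35.7%) were lower, against 8.73% of all genes, and 5 (11.9%) were higher, against 5.98%. Among the genes that fell were Kcna4, Kcnab1, Kcnd2, Kcnf1, Kcng1, Kcng3, Kcnh1, Kcnh3, Kcnh4, Kcnh7, Kcnq3, Kcnq5 and Kcnt2. Among those that rose were Kcna1, Kcna2, Kcnab3 and Kcnh2. Of the 20 members called, Kcnh3, Kcnh4 and Kcng1 changed by at least 2-fold, the study's own threshold. All 3 fell, and 1.32% of all genes fell by as much. The 95% interval of the Kcng1 log2 fold change, from -1.33 to -0.89, also takes in falls of less than 2-fold. The median log2 fold change of the members was -0.10, beside 0.0038 over all genes tested, and the members' values ran from -2.22 to 0.62. At least 2-fold higher were 0 members, against 0.127% of all genes. The libraries of the groups did not overlap for 16 of the 42 members on the lower side, against 16.4% of all genes. On the higher side this held for 9 of the 42, against 14.9%.

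Of the 20 calls, 12 held under all 22 alternatives that keep the threshold at an adjusted p alone, and 3 of the 20 also passed the 2-fold threshold. Of the same calls, 15 held with each library left out in turn. The members' median of mean reads was 369.7, against 169 over all genes tested. The part of read depth in the share of members called was not tested.

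**Figure D2:**
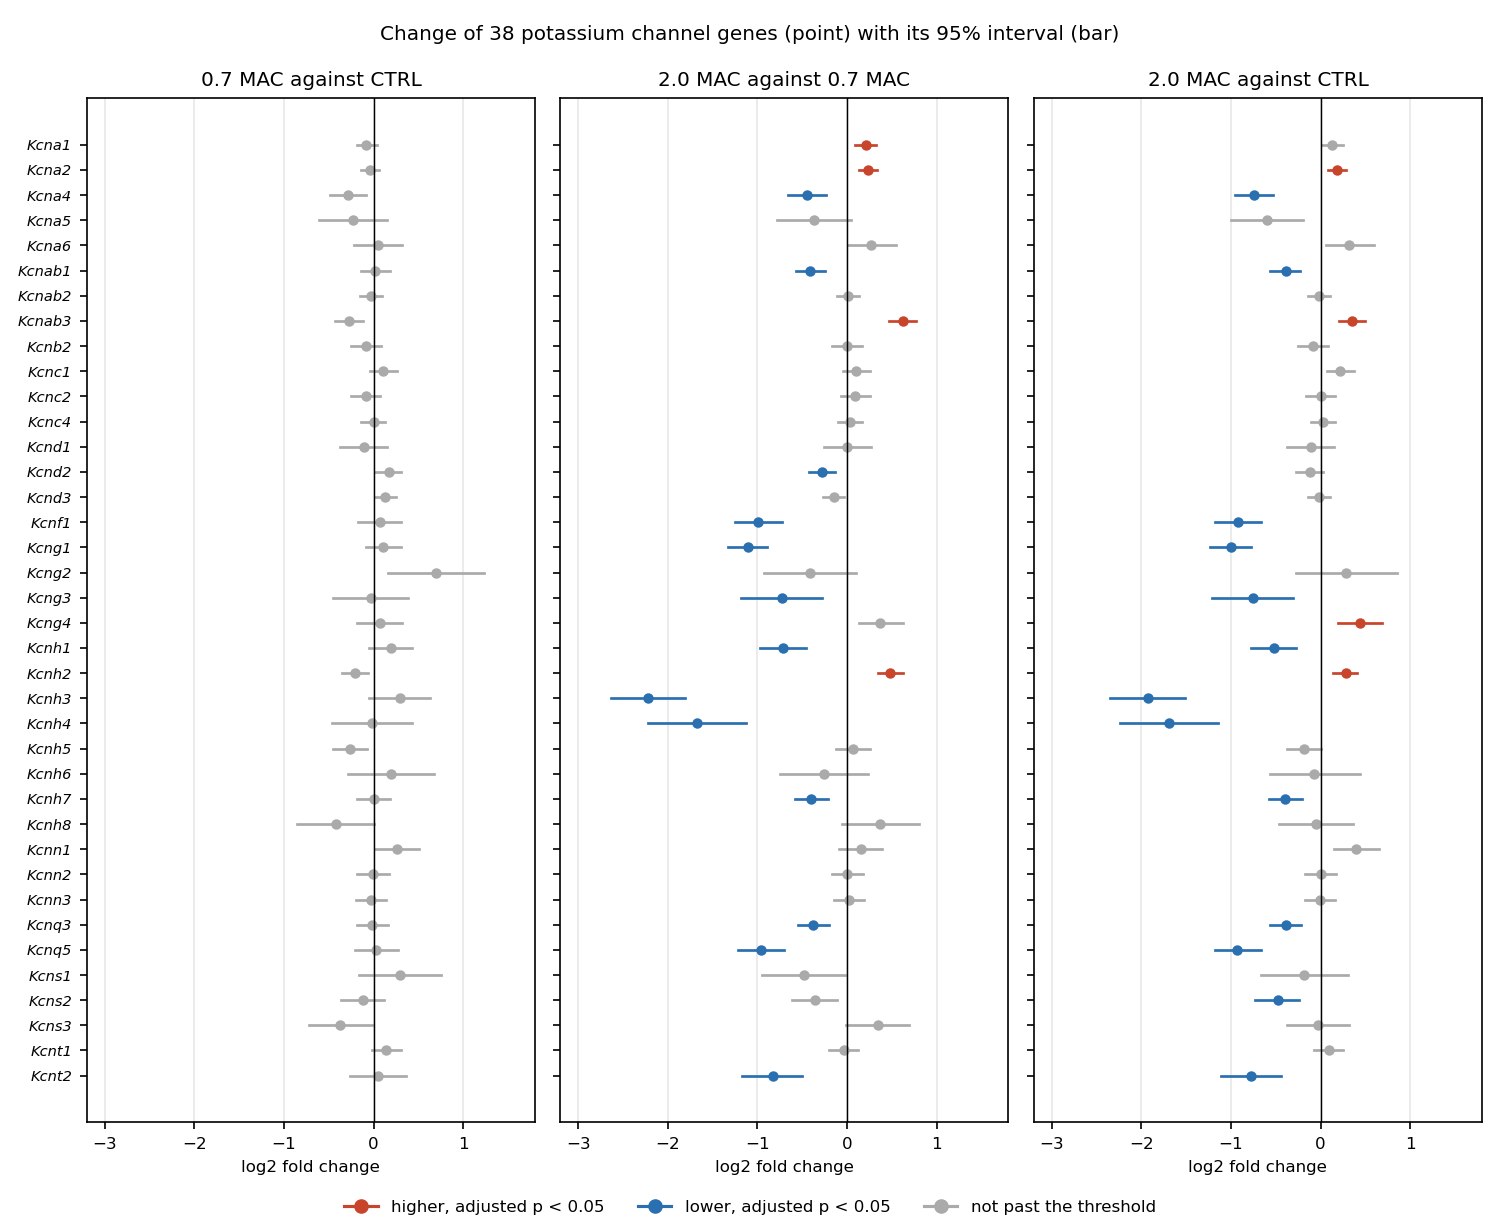
Log2 fold change of 38 members (point) with its 95% interval (bar) in the 3 comparisons, with members called higher in red, lower in blue and the rest in grey. None of them is called between 0.7 MAC and CTRL, and 13 of those drawn are called lower and 4 higher in each comparison of the 2.0 MAC group, with Kcnh3 at -2.22 against 0.7 MAC farthest from 0.

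Genes that mark other brain regions moved in the same comparison, in lists chosen with earlier results of these data known. The summed CPM (reads scaled to the size of the library, with TMM factors) of a list of cortex and hippocampus genes was 2137 to 3009.8 in CTRL, 2619 to 3426 at 0.7 MAC and 1264 to 1519 at 2.0 MAC. Of its 20 tested genes, 16 fell between 2.0 MAC and 0.7 MAC. In the striatum list 19 of 20 genes fell, and its summed CPM was 2503 to 2999.6 in CTRL, 1870.0 to 2979 at 0.7 MAC and 1251 to 1374 at 2.0 MAC. The hypothalamus list, which checks the label of the tissue, had 17 tested genes of 25, 7 higher and 1 lower, with sums of 179.6 to 214 in CTRL, 151 to 182 at 0.7 MAC and 208 to 222 at 2.0 MAC. Hindbrain genes rose in 7 of 13 (sums 218 to 233 at 0.7 MAC, 364 to 412 at 2.0 MAC), thalamus and habenula genes in 8 of 18 with 1 lower (921 to 997, 1246 to 1383) and midbrain genes in 5 of 14 with 1 lower (129 to 158, 152 to 167). Oligodendrocyte genes rose in 19 of 20, with sums of 10100.2 to 11572 in CTRL, 8135 to 9554 at 0.7 MAC and 10982 to 13176 at 2.0 MAC. Of 17 neuron genes 3 rose and 3 fell, with sums of 9319 to 9852 at 0.7 MAC and 9050.0 to 9262 at 2.0 MAC. Cerebellum genes fell in 1 of 12 and their sums varied within groups, from 221 to 1191 at 0.7 MAC and from 216 to 630.3 at 2.0 MAC. Astrocyte genes rose in 10 of 15 and fell in 2. Their sums were 8050.0 to 8584 in CTRL, 7919 to 8698 at 0.7 MAC and 7702 to 8026 at 2.0 MAC, so the sum did not rise. Microglia genes moved in 0 of 12 (sums 272 to 319 at 0.7 MAC, 271 to 280.1 at 2.0 MAC). Endothelium and mural cell genes rose in 1 of 15, with sums of 634 to 640.4 in CTRL, 531 to 569 at 0.7 MAC and 583 to 609 at 2.0 MAC. Parvalbumin interneuron genes rose in 2 and fell in 2 of 8. Their sums were 2070.4 to 2228 in CTRL, 1922 to 1977 at 0.7 MAC and 2219 to 2241 at 2.0 MAC. No marker of these lists was at 0 reads in all libraries. The part of these differences in the changes of the channel genes was not tested, and fewer cells of a type cannot be told apart from less RNA per cell in bulk tissue.

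**Figure D3:**
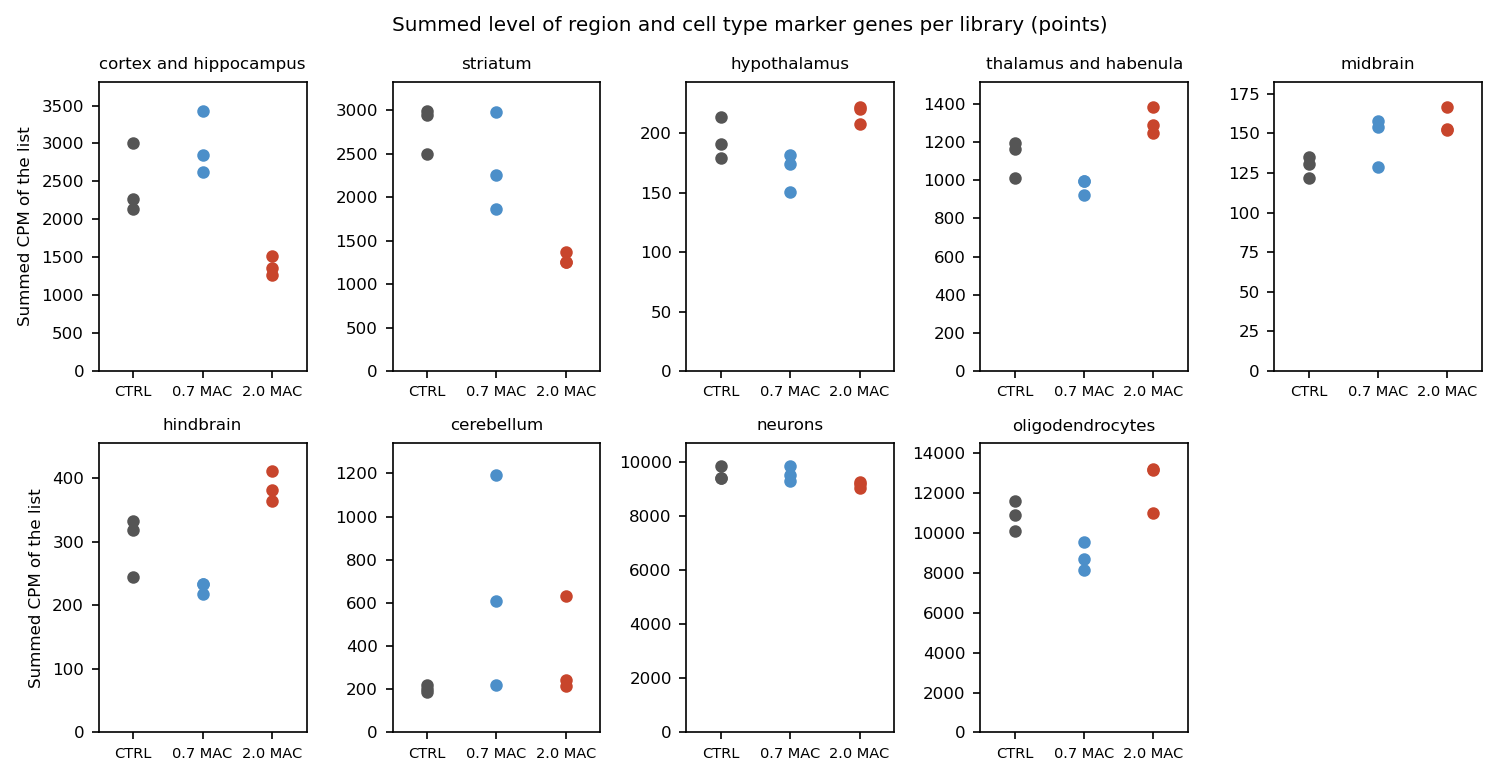
Summed CPM of each list of region or cell type markers (vertical axis from 0), 1 point per library, for CTRL, 0.7 MAC and 2.0 MAC. All 2.0 MAC libraries lie below the others for cortex and hippocampus (1264 to 1519) and for striatum (1251 to 1374), and above the others for hindbrain (364 to 412).

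Kcnh genes encode the ether-a-go-go family, in which Kcnh3, Kcnh4 and Kcnh8 form the Elk branch, Kcnh2, Kcnh6 and Kcnh7 the Erg branch and Kcnh1 and Kcnh5 the Eag branch. Of the 8, 4 fell and 1 rose between 2.0 MAC and 0.7 MAC. Kcnh3, an Elk channel known from cortical and hippocampal neurons, had 53.2, 28.3 and 38.4 CPM in CTRL, 41.5, 45.8 and 59.1 at 0.7 MAC and 8.35, 11.5 and 11.2 at 2.0 MAC. All 2.0 MAC libraries lay far below the others, and CTRL replicate 1 and 0.7 MAC replicate 3 were the highest of their groups. Its log2 fold change was -2.22 ± 0.21 (SE, edgeR adjusted p = 6.55e-06) against 0.7 MAC and -1.93 ± 0.22 (SE, edgeR adjusted p = 3.46e-05) against CTRL.

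Kcnh4, another Elk channel, had 11.6, 7.40 and 8.56 CPM in CTRL, 8.22, 7.34 and 11.6 at 0.7 MAC and 2.6, 4.04 and 1.93 at 2.0 MAC. The 2.0 MAC libraries lay below all others, with a log2 fold change of -1.68 ± 0.28 (SE, edgeR adjusted p = 6.03e-04) against 0.7 MAC and -1.69 against CTRL. Kcnh8, the third Elk gene, had 3.90, 3.10 and 5.06 CPM at 0.7 MAC and 5.19, 5.33 and 5.11 at 2.0 MAC, a log2 fold change of 0.37 with a 95% interval from -0.06 to 0.80. Its interval does not reach the intervals of Kcnh3 and Kcnh4.

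Kcnh2, an Erg channel best known for repolarizing heart muscle and also present in neurons, moved the other way. It had 81.7, 97.7 and 95 CPM in CTRL, 81.9, 76.6 and 79.5 at 0.7 MAC and 113, 114 and 106 at 2.0 MAC. Every 2.0 MAC library was above every other library, and the log2 fold change was 0.48 ± 0.071 (SE, edgeR adjusted p = 2.26e-04) against 0.7 MAC and 0.28 ± 0.071 (SE, edgeR adjusted p = 0.0205) against CTRL. The call against CTRL was lost without CTRL replicate 1, 2.0 MAC replicate 1 or 2.0 MAC replicate 2. Kcnh7, its Erg relative, fell with a log2 fold change of -0.40 in both comparisons, calls that limma did not make at either pseudocount, and Kcnh1, an Eag channel, fell by 0.71 and 0.52 on the log2 scale. Against CTRL both calls were lost without CTRL replicate 1 or 2.0 MAC replicate 1, and that of Kcnh1 also without 2.0 MAC replicate 2. On total exon reads Kcnh1 fell by 0.78 and 0.63. Kcnh5 and Kcnh6 had 0.07 and -0.26 against 0.7 MAC and did not pass the threshold.

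Kcnb genes encode delayed rectifiers. Kcnb2 had 93.0, 80.4 and 82.2 CPM in CTRL, 87.3, 69.8 and 83.2 at 0.7 MAC and 80.9, 84.6 and 75.7 at 2.0 MAC, and all groups overlap. It had a log2 fold change of 0.00 with a 95% interval from -0.17 to 0.17 against 0.7 MAC.

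Kcnf1 and Kcng1, silent partners of Kcnb channels, followed Kcnh3 and Kcnh4 in the size of their fall between 2.0 MAC and 0.7 MAC. Kcnf1 had 82.2, 60.3 and 59.2 CPM in CTRL, 69.1, 62.4 and 80.1 at 0.7 MAC and 34.1, 40.8 and 31.8 at 2.0 MAC. It fell in all 2.0 MAC libraries, with a log2 fold change of -0.99 ± 0.13 (SE, edgeR adjusted p = 8.84e-05) against 0.7 MAC and -0.92 against CTRL. Kcng1 had 25.6, 24.2 and 22 CPM in CTRL, 26.5, 23.8 and 26.8 at 0.7 MAC and 10.8, 11.8 and 13.0 at 2.0 MAC. Its replicates were close within each group, and the log2 fold change was -1.11 ± 0.11 (SE, edgeR adjusted p = 1.12e-05) against 0.7 MAC and -1.0 ± 0.12 (SE, edgeR adjusted p = 4.27e-05) against CTRL. Over the 22 alternatives the first ran from -1.19 to -0.58, with the call kept in all.

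Kcng3 was called lower against 0.7 MAC with a log2 fold change of -0.73 (edgeR adjusted p = 0.0436), but its libraries overlapped (7.99 to 13.0 CPM at 0.7 MAC, 4.52 to 8.56 at 2.0 MAC). This call was lost without CTRL replicate 2, 0.7 MAC replicate 1 or 3, or 2.0 MAC replicate 1 or 2, and in 11 of 22 alternatives in all. Against CTRL Kcng3 had -0.76 (edgeR adjusted p = 0.0475), a call lost in 10 of 22 alternatives, 5 of them fits that leave out a library. Kcng4, the most abundant Kcng gene, had 35.1, 40.8 and 39.7 CPM in CTRL, 40.3, 49.4 and 31.7 at 0.7 MAC and 48.0, 50.4 and 57.9 at 2.0 MAC. It was called higher against CTRL (log2 fold change 0.44, edgeR adjusted p = 0.0350) and not against 0.7 MAC (0.37, edgeR adjusted p = 0.0557, called in 9 of 22 alternatives), and 7 of the 9 fits that leave out a library lost the call against CTRL, all but those without 0.7 MAC replicate 2 or 3. Kcng2 had -0.41 against 0.7 MAC with an interval from -0.93 to 0.10.

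Kcns2, a silent subunit of the Kcns group, had 33.9, 30.9 and 26.9 CPM in CTRL, 26.6, 23.8 and 33.5 at 0.7 MAC and 22.1, 20.3 and 22.9 at 2.0 MAC. It was lower than every CTRL library at 2.0 MAC, with a log2 fold change of -0.48 (edgeR adjusted p = 0.0227), and had -0.36 (edgeR adjusted p = 0.0708) against 0.7 MAC. The call against CTRL was lost without CTRL replicate 1 or 2 or 2.0 MAC replicate 1 or 2, on total gene reads and with limma at either pseudocount. Kcns1 and Kcns3 had log2 fold changes of -0.48 and 0.34 against 0.7 MAC and passed the threshold in no comparison.

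Kcna channels sit mostly on axons and nerve endings. Kcna4, which carries a fast inactivating current, had 90.6, 75.4 and 80.6 CPM in CTRL, 57.4, 66.8 and 77.8 at 0.7 MAC and 52.9, 44.2 and 50.4 at 2.0 MAC. The 0.7 MAC values lay between those of the other groups, with 1 library inside the CTRL range. Against 0.7 MAC the log2 fold change was -0.45 ± 0.11 (SE, edgeR adjusted p = 0.00838, 5.07e-06 to 0.0567 over the alternatives), and the call was lost without 2.0 MAC replicate 2 and with limma on log2(RPKM + 1). Against CTRL it was -0.74 ± 0.11 (SE, edgeR adjusted p = 2.65e-04), a call kept under all 22 alternatives other than the 2-fold threshold, which it does not reach.

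Kcna1 had 286, 310.4 and 313 CPM in CTRL, 274, 289 and 299.6 at 0.7 MAC and 347, 341 and 308 at 2.0 MAC. At 2.0 MAC the libraries were above all 0.7 MAC libraries and overlapped with CTRL. Its log2 fold change of 0.21 ± 0.059 (SE, edgeR adjusted p = 0.0244) against 0.7 MAC lost its call without 0.7 MAC replicate 1 or 2.0 MAC replicate 1 or 2. Kcna2 rose by a log2 fold change of 0.23 ± 0.051 (SE, edgeR adjusted p = 0.00568) against 0.7 MAC and 0.18 ± 0.051 (SE, edgeR adjusted p = 0.0309) against CTRL, and the second call was lost without CTRL replicate 1 or 3 or 2.0 MAC replicate 1 or 2. Kcna5 had -0.37 and Kcna6 0.27 against 0.7 MAC without passing the threshold. On total exon reads Kcna6 was called higher against 0.7 MAC with a log2 fold change of 0.21 (edgeR adjusted p = 0.0180). On the same reads Kcna6 at 2.0 MAC had 0.01 against CTRL, with an interval from -0.10 to 0.11. At 0.7 MAC it had -0.20 against CTRL (edgeR adjusted p = 0.0934). Kcna3 had 0.02 against 0.7 MAC on total exon reads, with an interval from -0.20 to 0.23.

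The beta subunits of Kcna channels moved apart. Kcnab3 had 45.0, 49.7 and 53.6 CPM in CTRL, 40.7, 41.1 and 40.9 at 0.7 MAC and 63.8, 62.9 and 62.1 at 2.0 MAC. The 3 groups did not overlap, and the log2 fold change was 0.62 ± 0.077 (SE, edgeR adjusted p = 5.33e-05) against 0.7 MAC and 0.35 ± 0.076 (SE, edgeR adjusted p = 0.00791) against CTRL. Kcnab1, which gives Kcna channels inactivation, had 139, 133 and 138 CPM in CTRL, 122, 144 and 149.5 at 0.7 MAC and 109, 91.4 and 111 at 2.0 MAC. All 2.0 MAC libraries lay below all others, with a log2 fold change of -0.41 ± 0.082 (SE, edgeR adjusted p = 0.00250) against 0.7 MAC and -0.39 against CTRL.

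Kcnab2 had 382, 381 and 374 CPM in CTRL, 375, 331 and 409 at 0.7 MAC and 373, 376 and 372 at 2.0 MAC, a log2 fold change of 0.01 with an interval from -0.11 to 0.13 against 0.7 MAC. A ratio within a library does not depend on scaling between libraries: reads of Kcnab1 divided by those of Kcnab3 gave 2.57 to 3.08 in CTRL, 2.99 to 3.66 at 0.7 MAC and 1.45 to 1.79 at 2.0 MAC. This ratio was chosen after its genes' values were seen and is a description.

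**Figure D4:**
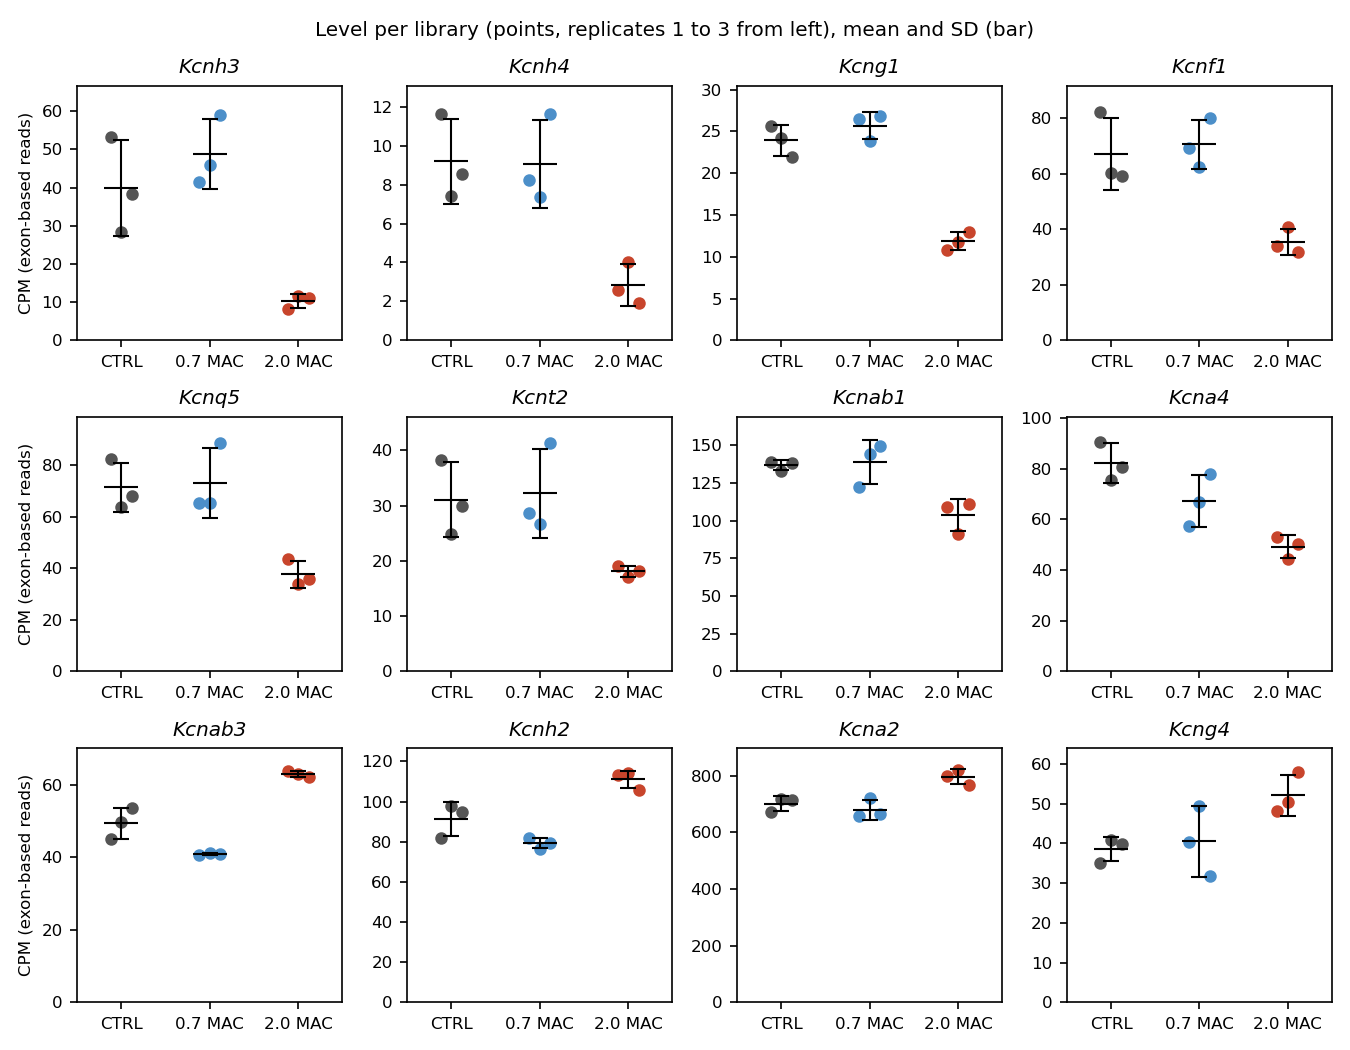
CPM of 12 members in each library (points, replicates 1 to 3 from left) with the group mean and SD (black bars), each panel from 0. The 2.0 MAC libraries are lowest for the first 8 genes, such as Kcnh3 (8.35 to 11.5) and Kcng1 (10.8 to 13.0), and highest for Kcnab3 (62.1 to 63.8), Kcnh2 (106 to 114) and Kcna2 (769 to 821), while Kcng4 overlaps with 0.7 MAC.

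Kcnq3 and Kcnq5 encode subunits of the M current, a slow current that muscarinic receptors close and that restrains repetitive firing. Both fell. Kcnq5 had 82.2, 63.9 and 67.9 CPM in CTRL, 65.3, 65.1 and 88.5 at 0.7 MAC and 43.6, 33.7 and 35.8 at 2.0 MAC. Each 2.0 MAC library lay below every other library, with a log2 fold change of -0.96 ± 0.13 (SE, edgeR adjusted p = 1.10e-04) against 0.7 MAC and -0.93 ± 0.13 (SE, edgeR adjusted p = 2.59e-04) against CTRL. Kcnq3 had -0.38 and -0.39 in these comparisons. Neither was called with limma at either pseudocount, the first also not on total or unique gene reads (-0.45 to -0.11 over its 22 alternatives, adjusted p up to 0.341) and the second also not without CTRL replicate 1. Kcnq3 introns had a log2 fold change of -0.03 against 0.7 MAC, with an interval from -0.17 to 0.12.

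Kcnc channels open at high voltage and close fast, which lets neurons fire at high rates. Kcnc1, Kcnc2 and Kcnc4 had log2 fold changes of 0.10, 0.09 and 0.03 against 0.7 MAC and passed the threshold in neither comparison.

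Kcnd channels carry the fast A-type current of cell bodies and dendrites. Kcnd2 had 188, 170.5 and 172 CPM in CTRL, 187, 217 and 192 at 0.7 MAC and 166, 146 and 176 at 2.0 MAC. It fell against 0.7 MAC with a log2 fold change of -0.28 ± 0.074 (SE, edgeR adjusted p = 0.0147), a call lost without 0.7 MAC replicate 2 or 2.0 MAC replicate 2, on total gene reads and with limma at either pseudocount, and had -0.12 (edgeR adjusted p = 0.373) against CTRL. Kcnd1 had 0.00 and Kcnd3 -0.15 against 0.7 MAC.

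Of the channels gated by ions inside the cell, Kcnt2 fell and the others passed the threshold in no comparison. Kcnt2 had 38.3, 24.9 and 30.0 CPM in CTRL, 28.6, 26.6 and 41.4 at 0.7 MAC and 19.1, 17.1 and 18.1 at 2.0 MAC. All 2.0 MAC libraries lay below all others, with a log2 fold change of -0.83 ± 0.17 (SE, edgeR adjusted p = 0.00307) against 0.7 MAC and -0.78 ± 0.17 (SE, edgeR adjusted p = 0.00833) against CTRL, the second not called without CTRL replicate 1 or with limma at either pseudocount. Kcnt1 had 194, 187 and 205 CPM in CTRL, 199, 246 and 202 at 0.7 MAC and 204, 192 and 231 at 2.0 MAC, with a log2 fold change of -0.04 and an interval from -0.20 to 0.12 against 0.7 MAC.

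Kcnn2 had 47.7, 46.1 and 44.3 CPM in CTRL, 44.2, 41.7 and 51.5 at 0.7 MAC and 44.5, 43.4 and 49.6 at 2.0 MAC, with a log2 fold change of 0.00 and an interval from -0.17 to 0.18. Kcnn1 and Kcnn3 had 0.15 and 0.02 against 0.7 MAC. Against CTRL, Kcnn1 had 12, 11.5 and 11.1 CPM in CTRL and 13.7, 16.1 and 15.6 at 2.0 MAC, which do not overlap, with a log2 fold change of 0.40, an interval from 0.15 to 0.65 (edgeR adjusted p = 0.0565) and a call in 6 of 22 alternatives. Kcnn channels underlie a hyperpolarization that follows an action potential, and none of the 3 members passed the threshold in the fit used here.

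Between 0.7 MAC and CTRL, 0 of the 42 members were called by edgeR's quasi-likelihood test, against 1.63% of all genes (0.884% higher and 0.743% lower), and DESeq2 and limma on log2 RPKM also called 0. At an unadjusted p under 0.05, Kcng2, Kcnd2 and Kcnd3 were higher and Kcna4, Kcnab3, Kcnh2 and Kcnh5 were lower. The largest of these differences was that of Kcng2, with a log2 fold change of 0.70 and an interval from 0.16 to 1.23 (edgeR adjusted p = 0.220). The groups did not overlap for 2 of the 42 members above CTRL, Kcnd3 and Kcnn1, against 8.80% of all genes, and for 1 below CTRL, Kcnab3, against 9.25%. The members' log2 fold changes ran from -0.42 to 0.70. Without CTRL replicate 1, Kcnab3 and Kcnh2 were called lower, and without 0.7 MAC replicate 3, Kcna4 and Kcnh5 were. Cortex and hippocampus genes rose in 1 of 20 in this comparison, striatum genes fell in 1 of 20, thalamus and habenula genes fell in 3 of 18, midbrain genes rose in 1 and fell in 1 of 14, hindbrain genes fell in 1 of 13, cerebellum genes rose in 4 of 12, oligodendrocyte genes fell in 7 of 20, microglia genes in 1 of 12 and endothelium and mural cell genes in 3 of 15.

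Between 2.0 MAC and CTRL, 20 of 42 members (47.6%) differed, against 9.78% of all genes. Here 15 (35.7%) fell, against 6.42% of all genes, and 5 (11.9%) rose, against 3.36%. The 2.0 MAC libraries are the same as in the first comparison, so the pair of counts is not independent. Among the genes that fell were Kcna4, Kcnab1, Kcnf1, Kcng1, Kcng3, Kcnh1, Kcnh3, Kcnh4, Kcnh7, Kcnq3, Kcnq5, Kcns2 and Kcnt2, and among those that rose were Kcna2, Kcnab3, Kcng4 and Kcnh2. At least 2-fold lower were Kcnh3, Kcnh4 and Kcng1, against 0.976% of all genes, and 0 were 2-fold higher, against 0.382%. Kcng1 stood at the threshold itself with a 2.00-fold fall. The median log2 fold change of the members was -0.08, beside 0.0015 over all genes. Groups did not overlap for 17 of the 42 members on the lower side, against 15.2% of all genes, and for 8 of the 42 on the higher side, against 13.1%.

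This comparison rested more on single libraries than the first. Without CTRL replicate 1, 8 members fell and 1 rose, 10 fell without 2.0 MAC replicate 1, and the number that rose was 2 without 2.0 MAC replicate 1 or 2 and 3 without CTRL replicate 3 or 2.0 MAC replicate 3. Of the 20 calls, 9 held under all 22 alternatives other than the 2-fold threshold, those that leave out a library included, and 3 of the 20 also passed the 2-fold threshold. In the same comparison cortex and hippocampus genes fell in 11 of 20, striatum genes in 20 of 20 and oligodendrocyte genes rose in 3 of 20. Thalamus and habenula genes rose in 5 and fell in 1 of 18, hindbrain genes rose in 4 of 13, hypothalamus genes rose in 3 and fell in 1 of 17, and midbrain and cerebellum genes rose in 1 and fell in 1 of 14 and 12. Astrocyte genes rose in 4 and fell in 1 of 15, neuron genes rose in 1 and fell in 2 of 17, endothelium and mural cell genes rose in 1 and fell in 2 of 15, microglia genes fell in 2 of 12, and parvalbumin interneuron genes rose in 2 and fell in 3 of 8. The part of these differences was not tested.

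Intron reads come largely from RNA that has not been spliced yet, and they are counted from other positions of the same libraries than the exon reads. They could be tested for 39 members, all except Kcna5, Kcnf1 and Kcns1. From 0.7 MAC to 2.0 MAC, 8 of these 39 (20.5%) fell in intron reads, against 3.81% of all genes, and 4 (10.3%) rose, against 3.05%. Among those that fell were Kcnab1, Kcng1, Kcng3, Kcnh1, Kcnh3, Kcnh4 and Kcnq5. Those that rose were Kcna6, Kcng4, Kcnh2 and Kcnh8. Kcnh3 introns had 14.5, 9.06 and 13.5 CPM in CTRL, 9.48, 11.4 and 16.1 at 0.7 MAC and 2.82, 3.45 and 4.78 at 2.0 MAC, a log2 fold change of -1.75 ± 0.25 (SE, edgeR adjusted p = 0.00231). All 2.0 MAC libraries lay below the rest, as in exon reads.

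Kcnq5 introns were the most deeply covered of those called, with 1218, 924 and 1055 CPM in CTRL, 776, 800.1 and 1115 at 0.7 MAC and 570.2, 465 and 437 at 2.0 MAC, a log2 fold change of -0.91 ± 0.15 (SE, edgeR adjusted p = 0.00368). Kcnh2 introns had 17.6, 16.9 and 18.8 CPM in CTRL, 17.1, 17.5 and 17.8 at 0.7 MAC and 25.5, 27.5 and 25.7 at 2.0 MAC, a log2 fold change of 0.54 ± 0.081 (SE, edgeR adjusted p = 0.00248). Kcng4 introns rose by a log2 fold change of 1.11, from 0.998 to 1.14 CPM at 0.7 MAC to 2.17 to 2.63 at 2.0 MAC. This was the largest rise of any member in either kind of read in this comparison, but it rests on a mean of 15.6 intron reads per library. The exon-based reads of Kcng4, with a mean of 281, gave 0.37 and no call. The numbers of intron calls moved with single libraries: 4 members fell without 2.0 MAC replicate 1 and 3 without 2.0 MAC replicate 2. Those that rose were 2 without 0.7 MAC replicate 1 or 2 or 2.0 MAC replicate 1, and 1 without 2.0 MAC replicate 2.

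**Figure D5:**
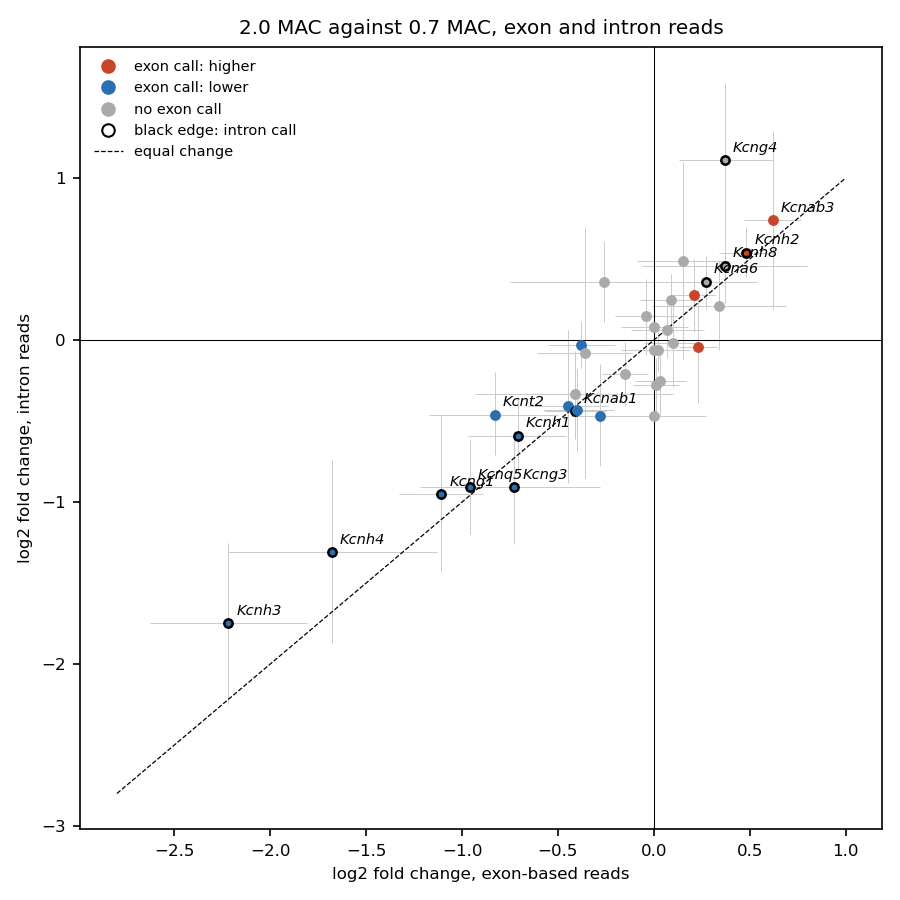
Log2 fold change between 2.0 MAC and 0.7 MAC of 35 members by exon-based reads (horizontal) and by intron reads (vertical), with 95% intervals in grey, exon calls in colour, intron calls with a black edge and equal change as a dashed line. Kcnh3 (-2.22 and -1.75) and Kcnh4 (-1.68 and -1.31) lie at the lower left, Kcnh2 (0.48 and 0.54) at the upper right, and Kcng4 (0.37 and 1.11) lies highest.

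In the comparison of 0.7 MAC with CTRL, Kcng2 alone (2.56%) rose in intron reads, against 1.75% of all genes, and Kcna6 alone (2.56%) fell, against 2.47%. Kcng2 introns had 12.3, 15.3 and 12 CPM in CTRL and 24.3, 17.5 and 25.3 at 0.7 MAC, a log2 fold change of 0.76 ± 0.14 (SE, edgeR adjusted p = 0.0102), and the call was lost without CTRL replicate 3. Kcna6 introns had 73.3, 74.1 and 68.3 CPM in CTRL, 56.6, 48.3 and 62.8 at 0.7 MAC and 73.9, 76.7 and 70.5 at 2.0 MAC, a log2 fold change of -0.36 ± 0.084 (SE, edgeR adjusted p = 0.0336), and 0 members fell without CTRL replicate 1 or 2 or 0.7 MAC replicate 1 or 2. Without 0.7 MAC replicate 3, 3 members rose and 3 fell. At 2.0 MAC the Kcng2 introns had 17.2 to 19.3 CPM, above the CTRL range, and those of Kcna6 overlapped with CTRL.

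In that of 2.0 MAC with CTRL, 9 members (23.1%) fell in intron reads, against 5.92% of all genes, and 3 (7.69%) rose, against 4.13%. Among those that fell were Kcna4, Kcnab1, Kcng1, Kcng3, Kcnh3, Kcnh4, Kcnh7 and Kcnq5. Those that rose were Kcnab3, Kcng4 and Kcnh2. The number that rose was 6 without 0.7 MAC replicate 2 or 3.

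On total exon reads, an alternative chosen after seeing the data, 43 genes could be tested, the 42 members and Kcna3. At 2.0 MAC 14 (32.6%) were lower than at 0.7 MAC, against 8.01% of all genes, and 6 (14.0%) were higher, against 5.46%. Kcna6 joined the genes that rose against 0.7 MAC, with a log2 fold change of 0.01 against CTRL, and Kcng3 was no longer called. The log2 fold changes of some members that the exon-based reads cover in part were -0.72 for Kcnt2, -0.42 for Kcnab1 and 0.02 for Kcnn2. Against CTRL 13 (30.2%) were lower, with 5.76% of all genes as background, and 5 (11.6%) were higher, with 2.98%. Kcng3 was among those no longer called. Between 0.7 MAC and CTRL edgeR called 0, with backgrounds of 0.516% higher and 0.452% lower, and 3 higher and 5 lower had an unadjusted p under 0.05.

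Channel partners outside the symbol rule were read from 5 lists, also chosen with earlier results of these data known. Their counts have the same backgrounds as the members. Of the 6 tested Kcnd partners, 1 rose and 1 fell between 2.0 MAC and 0.7 MAC: Kcnip2, a calcium sensor bound to Kcnd channels, had 67.6, 67.7 and 95.1 CPM at 0.7 MAC and 30.2, 27.6 and 32.6 at 2.0 MAC (log2 fold change -1.34, edgeR adjusted p = 8.25e-06). Its relative Kcnip1 had 30.4, 28.4 and 34.0 at 0.7 MAC and 40.6, 41.0 and 42.7 at 2.0 MAC (0.42, edgeR adjusted p = 0.00345). The ranges did not overlap for either gene.

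Of 11 tested genes of the axonal Kcna complex, 3 rose and 3 fell. Epb41l3, a scaffold next to the node of Ranvier, had a log2 fold change of 0.40 (edgeR adjusted p = 3.18e-05), Cntn2, an adhesion molecule of the same site, 0.26 (edgeR adjusted p = 0.00243), and Dlg4, a postsynaptic scaffold, -0.40 (edgeR adjusted p = 0.00128). Of 6 tested Kcnb partners 2 fell. Kcnv1, a silent subunit that the symbol rule leaves out, had 57.2, 31.5 and 30.0 CPM in CTRL, 25.6, 37.0 and 48.7 at 0.7 MAC and 7.98, 9.20 and 8.98 at 2.0 MAC, a log2 fold change of -2.08 (edgeR adjusted p = 8.80e-05), and Stx1a, a protein of synaptic vesicle release, had -1.29 (edgeR adjusted p = 4.35e-04). The large-conductance calcium-activated channel list had 2 of 6 tested genes lower, its pore gene Kcnma1 with -0.44 (edgeR adjusted p = 4.20e-04) and Kcnmb4 with -0.74 (edgeR adjusted p = 0.0214). Of 2 tested Kcne subunits, Kcne1l rose with 0.63 (edgeR adjusted p = 0.0433).

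Between 0.7 MAC and CTRL no gene of these 5 partner lists was called by edgeR. Between 2.0 MAC and CTRL, Kcnip2, Kcnma1, Kcnv1 and Stx1a were among those that fell, in lists with 1 of 6, 1 of 6 and 2 of 6 lower, and 2 of 11 genes of the axonal complex rose and 2 fell.

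RefSeq windows of the 250 bases before the start of a gene (GRCm38.p6) were given for 27 members. The GC box GGGCGG, searched on both strands, was in 7 of the 10 members called lower between 2.0 MAC and 0.7 MAC, in 1 of the 2 called higher and in 10 of the 15 not called, beside 35.4% of 27025 genes. A match is a description of letters and not of a site in use. The cyclic AMP element TGACGTCA was in 0 of the 27, beside 1.77% of genes, the E-box CAGATG in 3, beside 16.3%, and the letters TATAAA in 0, beside 14.3%. The windows of a pair of members called lower are shown because they differ in base composition, with GC boxes in capitals, 5′ to 3′ on the gene's strand.
Kcng3, chr17:83631896-83632145, minus strand: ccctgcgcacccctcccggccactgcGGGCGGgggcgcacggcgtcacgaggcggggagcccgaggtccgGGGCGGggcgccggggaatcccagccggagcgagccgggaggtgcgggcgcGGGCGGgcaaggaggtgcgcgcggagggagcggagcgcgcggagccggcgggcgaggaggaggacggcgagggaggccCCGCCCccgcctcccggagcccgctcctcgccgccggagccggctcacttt
Kcnf1, chr12:17176889-17177138, minus strand: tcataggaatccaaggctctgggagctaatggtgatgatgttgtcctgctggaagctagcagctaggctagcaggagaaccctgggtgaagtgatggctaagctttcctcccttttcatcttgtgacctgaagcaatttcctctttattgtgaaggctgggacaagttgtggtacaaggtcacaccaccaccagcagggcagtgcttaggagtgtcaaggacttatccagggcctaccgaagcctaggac
G and C made up 82.4% of the Kcng3 window and 51.2% of the Kcnf1 window, which holds no GC box. Both genes were called lower, but the Kcng3 call was lost in 11 of 22 alternatives. A link between base composition and direction of change was not tested.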

How the data were processed

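RNA of 9 libraries was rRNA-depleted, prepared with a stranded kit and sequenced, 3 libraries per group. The authors mapped the reads in CLC Genomics Workbench to the mouse genome (mm10, GRCm38) and deposited per-gene read counts, which are whole numbers and not normalized, and RPKM values computed from total exon reads. The strand setting of the counting was not stated. The table's own fold change and p-value columns hold the authors' comparisons and were not used. Of 198 columns in library blocks, 139 were not used. Exon-based reads totalled 5321491 to 7178568 per library and reads within genes 14458778 to 20032516, of which introns took 58.87 to 62.02%. The intron share was 58.87 to 59.08% in the 2.0 MAC libraries and 59.56 to 62.02% in the others. TMM factors were 1.0135 to 1.0172 at 2.0 MAC and 0.9741 to 1.0022 in the others. The part of these differences in the results was not tested.

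The deposited exon-based read counts were tested with edgeR 4.0.16 in R 4.3.3 (quasi-likelihood test, TMM scaling, filterByExpr with a minimum count of 10, all 9 libraries in 1 fit), with Benjamini-Hochberg adjustment over 14140 genes and calls at an adjusted p under 0.05. Intron reads and total exon reads were fitted in the same way. Alternatives were other scalings and filters, a likelihood ratio test, the compared libraries alone, a replicate block, DESeq2 1.42.0, limma 3.58.1 on log2 of RPKM plus 0.1 or 1, total and unique gene reads, the 2-fold threshold and leaving out each library. The fits were tested on simulated data. Intervals of log2 fold changes are at 95%.

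Values per library are given for the called member of largest change in each subfamily and comparison, for members past 2-fold and for the member of highest RPKM in each subfamily, and other members by ranges and counts. Of partner lists up to 4 genes with the smallest adjusted p are named, and marker lists are given by counts and sums. Some members and marker genes are not reported here by name, in the text or the plots, but count in all totals. The library values of Kcnh8 and of introns were chosen after they were seen, and those of Kcnb2 and Kcnn1 are also given outside the rule above. The members, the marker lists and the partner lists were chosen with earlier results of these data known. Marker lists covered regions (cortex and hippocampus, striatum, hypothalamus, thalamus and habenula, midbrain, hindbrain, cerebellum) and cells (neurons, oligodendrocytes, astrocytes, microglia, endothelium and mural cells, parvalbumin interneurons).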

Additional observations from a re-analysis of the deposited data

How the results depend on the processing

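No member's call turned its direction under any alternative. With the 2-fold threshold, 0 members were higher and 3 lower between 2.0 MAC and 0.7 MAC and between 2.0 MAC and CTRL. For 2.0 MAC against 0.7 MAC, 8 were higher on total gene reads and 9 lower with limma on log2(RPKM + 1). For 2.0 MAC against CTRL, 9 were lower with limma at either pseudocount. Between 0.7 MAC and CTRL, 1 was higher and 1 lower without a filter, on total gene reads and on unique gene reads. DESeq2 gave 4 higher and 15 lower, 0 and 0, and 5 and 15 in the 3 comparisons.

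Leaving out each library gave 4 to 6 higher and 12 to 15 lower between 2.0 MAC and 0.7 MAC, 0 higher and 0 to 2 lower between 0.7 MAC and CTRL, and 1 to 6 higher and 8 to 16 lower between 2.0 MAC and CTRL. For intron reads the ranges were 1 to 5 higher and 3 to 10 lower, 0 to 3 and 0 to 3, and 2 to 6 and 8 to 11.

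The titles of the libraries give replicate numbers and no pairing. The 9 same-numbered pairs had correlations of -0.2108 to -1e-04, and 0 libraries correlated best with their own number in both other groups. With 3 libraries per group such correlations cannot exclude a pairing or a batch. With a replicate block, the counts were 5 higher and 15 lower between 2.0 MAC and 0.7 MAC, 0 and 0 between 0.7 MAC and CTRL and 5 and 14 between 2.0 MAC and CTRL, and for introns 2 and 6, 1 and 0, and 2 and 9. The cause of these shifts was not tested. Depth limits the members with fewest reads, Kcnh6, Kcns1 and Kcnh8, and also Kcnh4, which had 14, 25 and 14 exon-based reads at 2.0 MAC. The Kcnh4 log2 fold change against 0.7 MAC ran from -2.02 to -0.48 over the 22 alternatives, with the call kept in all.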
